A study of Mus musculus with 24 samples.

Results

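The D-type cyclin axis, the set of genes that opens the G1 phase of the cell cycle, was examined in p53 KO and p53-mutant mouse astrocytes. Its 10 genes were chosen by name from the deposited table of 14427 genes: the INK4 inhibitors Cdkn2a, Cdkn2b and Cdkn2c, the CIP/KIP inhibitor Cdkn1b, the cyclins Ccnd1, Ccnd2 and Ccnd3, the kinases Cdk4 and Cdk6, and Rb1. All 10 were found in the table. No measured value was used to choose them, though they were chosen with earlier results of these data known.

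D-type cyclins bind CDK4 or CDK6, and the active kinases phosphorylate the retinoblastoma protein RB, which then releases E2F transcription factors and lets the genes of DNA replication be transcribed. INK4 proteins (p16Ink4a, p15Ink4b, p18Ink4c and p19Ink4d) bind the kinases and keep the cyclins off, whereas p27Kip1 binds whole cyclin-kinase complexes and is best known as an inhibitor of CDK2. Cdkn2a is unusual in coding for a pair of unrelated proteins from separate first exons: p16Ink4a, which acts on CDK4 and CDK6, and p19Arf, which binds MDM2 and thereby protects p53 from degradation. Loss of Cdkn2a and Cdkn2b is among the most frequent lesions of glioblastoma, and the locus is also silenced or deleted in many cell lines that grow without limit in culture.

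RNA-seq was carried out on 24 libraries, 3 from each of 8 lines. A p53 KO line and lines carrying the p53 mutants Y217C, Y202C or R172H were each made from 1 male and 1 female culture of cortical astrocytes taken on postnatal day 1 and labelled C57BL/6. Every line, the controls included, came from Trp53 f/- cells (1 floxed and 1 deleted allele) and received a lentivirus carrying Cre and puromycin resistance, so none kept its floxed allele by design. The mutant lines had first received a retrovirus with mutant Trp53 cDNA and eGFP and were sorted for eGFP, steps that the p53 KO lines did not undergo. Each culture pooled pups of 1 sex, cells were between passages 10 and 15, and medium was DMEM/F12 with 10% FBS. A line is thus 1 transduced pool, the replicates are separate samples of it, and p-values measure the spread between such samples; sex and culture cannot be told apart. In such bulk RNA, fewer cells of a type and less RNA per cell cannot be told apart either.

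Total counts per library ran from 52787288 to 136503809. Trp53, the targeted gene, averaged 50.9 and 48.9 CPM (the reads of a gene relative to the library's total, scaled by TMM factors) in male and female p53 KO, against 593 to 3709 CPM over the mutant lines, the lowest in female Y202C and the highest in female Y217C. The labelled cell type was only partly borne out by defining markers: Vim stood at 3325 to 4745 CPM and Sox9 at 79.96 to 182.5 CPM over line means, but Gfap was at most 0.257 CPM outside male Y217C (6.93 CPM) and Aqp4 was at most 0.113 CPM in 6 of the 8 lines. Slc1a2 and S100b were low as well (at most 7.82 and 1.28 CPM), Nfia stood at 28.3 to 125 CPM, and the markers Slc1a3 (3.14 to 281 CPM, highest in female R172H) and Aldh1l1 (0.0546 to 56.6 CPM, highest in male Y217C) varied widely. Of the 9 astrocyte markers 7 were called higher and 0 lower in male Y217C than in male p53 KO (median log2 change 3.11), beside 34.9% and 35.6% of all genes. In male Y202C 5 were higher and 4 lower (37.6% and 35.4% of all genes), and in male R172H 0 and 5 (20.2% and 20.5%). In female R172H the counts were 4 and 0 (34.4% and 35.3%) and in female Y202C 4 and 1 (34.3% and 34.3%). In female Y217C they were 1 and 3 (28.0% and 28.7%), the 3 lower being near the share of all genes. The summed level of 6 fibroblast and mural cell markers was 7971 to 41280 CPM per library, most of it Col1a1 and Col1a2, and was lowest in male Y202C (7971 to 9804 CPM, against 25300 to 30300 CPM in male p53 KO). Of the markers of other brain cells, 3 of 7 for microglia were listed and summed to 26.5 to 116 CPM per library. The 2 of 6 listed for oligodendrocytes summed to 3.39 to 14.8 CPM and the 3 of 5 for neurons to 31.3 to 137 CPM. The 2 of 4 listed for endothelium summed to 2.30 to 42.3 CPM. Tmem119 (106.6 CPM in female R172H), Tubb3 (98.69 CPM in male R172H) and Map2 (115.5 CPM in male Y217C) reached the range of Sox9. The endothelial sum averaged 39.2 CPM in male p53 KO, against 4.93, 2.63 and 5.62 CPM in male R172H, Y202C and Y217C. In females it averaged 13.9 CPM in p53 KO and 7.80 to 10.4 CPM in the mutants. The defining markers Cx3cr1, Olig2, Rbfox3 and Pecam1 were not among the listed genes. The part of these differences in the results below was not tested.

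The sequences just upstream of the Cdkn2a and Cdkn2b start sites are shown because the levels of these neighbouring genes were the first point checked and because their changes, given further on, ran in opposite directions. Each runs 5′ to 3′ on the minus strand of chromosome 4 and covers the bases from 250 to 51 before a RefSeq start (GRCm38.p6). Capitals mark a match to an E2F site spelled as TTTCCCGC, TTTGGCGC, TTTCGCGC or TTTGCCGC, searched on both strands.
Cdkn2a, distal start of the p19Arf transcript, chr4:89294670-89294869: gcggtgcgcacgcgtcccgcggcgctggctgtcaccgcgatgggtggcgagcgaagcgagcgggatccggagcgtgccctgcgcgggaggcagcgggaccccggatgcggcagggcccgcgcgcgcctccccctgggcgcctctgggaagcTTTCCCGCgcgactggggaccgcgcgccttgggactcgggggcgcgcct
Cdkn2a, proximal start of the p16Ink4a transcript, chr4:89282243-89282442: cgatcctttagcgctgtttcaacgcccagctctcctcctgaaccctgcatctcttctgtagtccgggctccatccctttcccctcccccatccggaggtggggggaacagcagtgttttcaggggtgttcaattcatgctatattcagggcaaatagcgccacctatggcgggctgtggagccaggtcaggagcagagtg
Cdkn2b, chr4:89311083-89311282: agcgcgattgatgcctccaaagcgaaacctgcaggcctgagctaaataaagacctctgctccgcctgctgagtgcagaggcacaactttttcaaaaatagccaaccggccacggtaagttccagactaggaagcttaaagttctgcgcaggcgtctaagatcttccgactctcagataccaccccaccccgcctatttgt
The p19Arf stretch was 79.0% G and C with 34 CG dinucleotides, the p16Ink4a stretch 57.5% with 7, and the Cdkn2b stretch 52.0% with 10. Only the p19Arf stretch held a listed E2F site. Among the 32851 RefSeq windows of the same kind (250 bases before a start), 1.86% held at least 1, and of the 10 windows found for 7 of the 10 genes only that of p19Arf did. The promoters of Cdkn1b, Cdkn2c, Ccnd3, Cdk4 and Cdk6 were searched but are not printed, and those of Ccnd1, Ccnd2 and Rb1 were not.

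Neither Cdkn2a nor Cdkn2b was lost in any line. Cdkn2a (chromosome 4, 89274471 to 89294653, minus strand, GRCm38) was counted 9443 to 49029 times per library, far above the 3 counts taken as the floor. Line means ran from 203 CPM in female Y202C to 344 CPM in female R172H, and per kb of exon they lay between percentiles 98.6 and 99.2 of 14350 genes. Cdkn2b (89306299 to 89311039, minus strand) was counted 5078 to 12066 times per library, with line means between 77.8 and 126 CPM and between percentiles 94.5 and 97.0. A gene-level count adds the p16Ink4a and p19Arf transcripts together, so which of them was present cannot be told from it, and deletions or point changes that leave the transcript in place would not show.

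**Figure D1:**
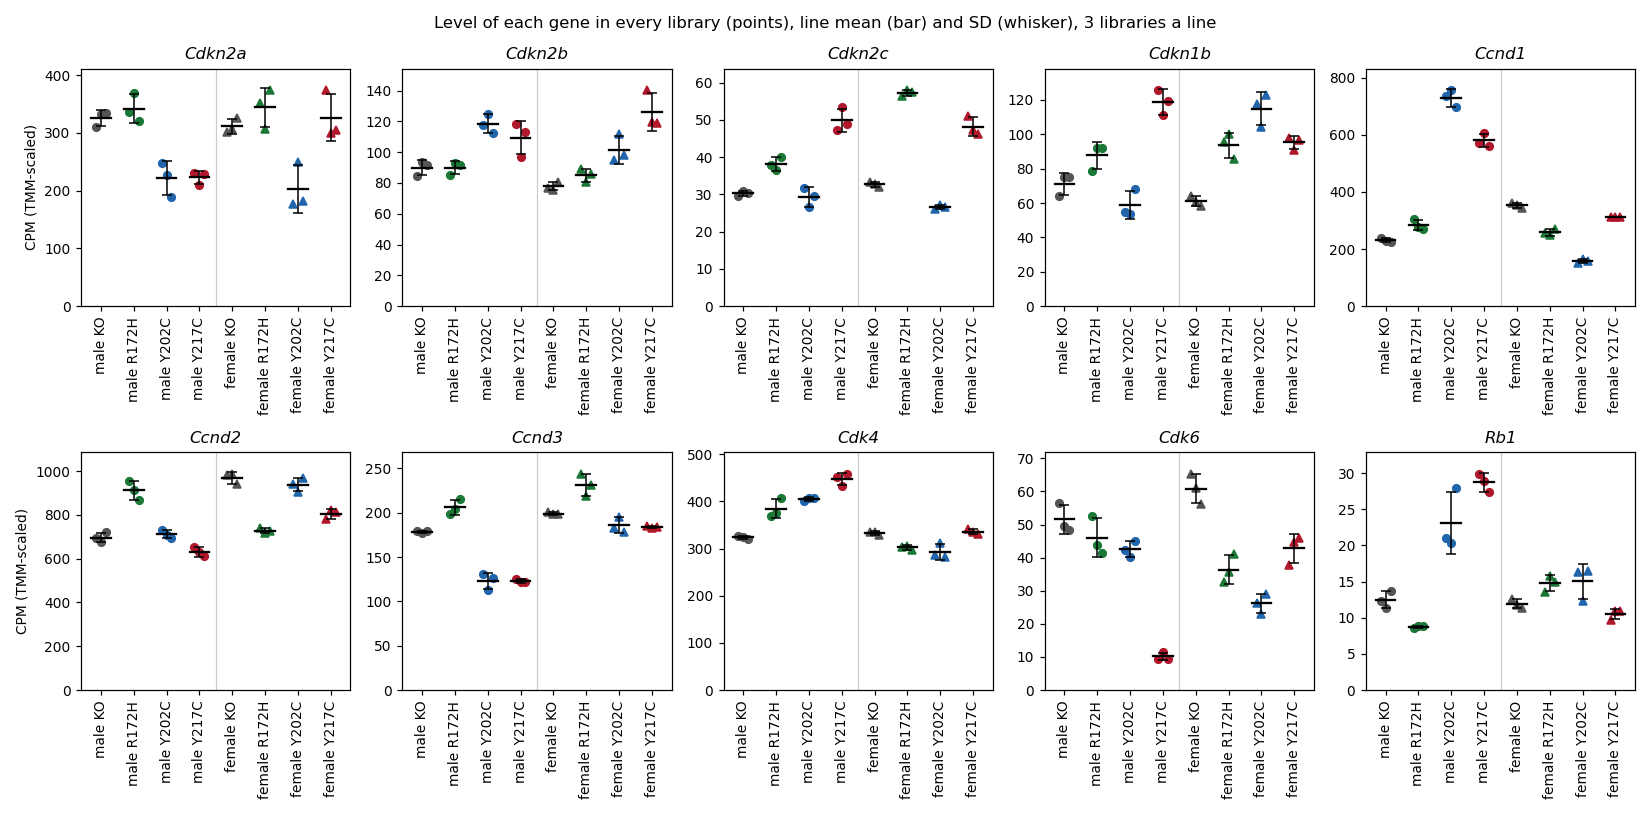
CPM (vertical axes, from 0) of each of the 10 genes in every library of the 8 lines (horizontal axes); points are libraries, bars line means and whiskers SD (n = 3), with circles for male and triangles for female lines. The lowest library stands at 176 CPM for Cdkn2a and 75.7 CPM for Cdkn2b, Ccnd1 is highest in male Y202C and male Y217C, and Cdk6 lies between 9.45 and 11.5 CPM in male Y217C.

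Each mutant was then compared with the p53 KO of its own culture. Changes here are log2 fold changes with their standard errors from edgeR's quasi-likelihood test, and a gene was called at an adjusted p of 0.05 or less over all 14427 genes. In male R172H, 7 of the 10 genes were called, 6 higher and 1 lower, where 40.7% of all genes were called (20.2% higher, 20.5% lower). In male Y202C 8 were called, 4 each way, beside 73.0% of all genes (37.6% higher, 35.4% lower). In male Y217C all 10 were called, 6 higher and 4 lower, beside 70.5% of all genes (34.9% higher, 35.6% lower). The counts in these 3 lines thus stood beside backgrounds in which most or many genes moved.
In female R172H 8 were called, 4 each way, beside 69.7% of all genes (34.4% higher, 35.3% lower). In female Y202C 8 were called, 3 higher and 5 lower, beside 68.6% (34.3% higher, 34.3% lower). In female Y217C 6 were called, 3 each way, beside 56.7% (28.0% higher, 28.7% lower). With so many genes called everywhere, sizes are given beside the calls. Changes beyond a log2 of 1 in either direction were seen for Ccnd1, Cdk6 and Rb1 only. These were 3 genes in male Y217C, 2 in female Y202C, 1 in male Y202C and 0 in the other 3 comparisons. The share of all genes beyond a log2 of 1 was not computed, so these counts describe the members alone. Median log2 changes of the 10 genes ran from -0.14 (female Y202C) to 0.37 (male Y217C), beside medians of all genes from -0.01 to 0.01. With library totals in place of TMM factors, 60.7% of the genes called in female Y217C were higher, against 49.3% with them, and the median of all genes in male Y217C moved to 0.10.

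**Figure D2:**
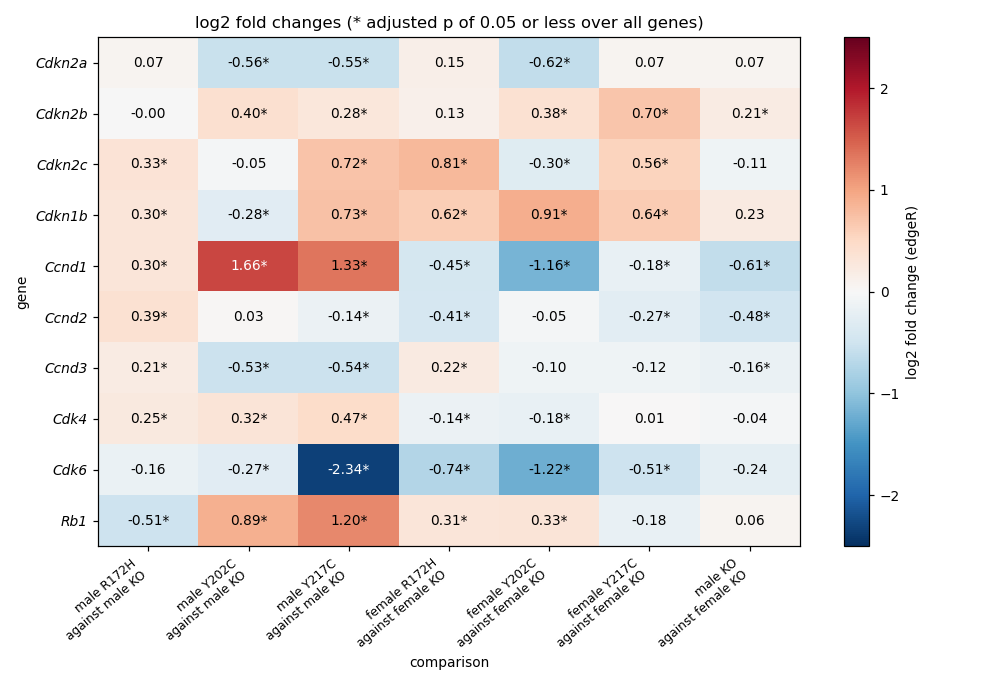
log2 fold changes (colour and printed value) of the 10 genes (rows) in the 6 comparisons of a mutant with its p53 KO and in male against female p53 KO (columns); an asterisk marks an adjusted p of 0.05 or less. The deepest fall is Cdk6 in male Y217C (-2.34) and the largest rise Ccnd1 in male Y202C (1.66), while the Cdkn2a row holds falls and uncalled values and the Cdkn2b row rises and uncalled values.

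Among the INK4 genes, Cdkn2a fell in 3 of the 6 mutant lines and Cdkn2b rose in 4, and in male Y202C, male Y217C and female Y202C both were seen in the same line. Cdkn2a measured 310.1, 333 and 334 CPM in the male p53 KO libraries, 247, 227 and 189.5 CPM in male Y202C, and 229.9, 209 and 229 CPM in male Y217C. None of the 6 mutant libraries reached the lowest of the male p53 KO ones. The log2 changes were -0.56 ± 0.11 (adjusted p = 8.9e-05) and -0.55 ± 0.11 (adjusted p = 0.000121).
In the female culture, Cdkn2a measured 302, 306 and 326 CPM in p53 KO against 176, 250.2 and 182.5 CPM in Y202C, a fall of 0.62 ± 0.11 on the log2 scale (adjusted p = 3.25e-05). The female Y202C libraries were again all below the p53 KO ones, though replicate 2 stood well above the others. R172H and female Y217C lines were not called for Cdkn2a, with log2 changes of 0.07 (male R172H, adjusted p = 0.651), 0.15 (female R172H, adjusted p = 0.246) and 0.07 (female Y217C, adjusted p = 0.618). In a fit of the compared lines alone, the female R172H value was called higher (0.16, adjusted p = 0.0397).

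Cdkn2b, which codes for the TGF-beta-responsive inhibitor p15Ink4b, measured 84.5, 93.7 and 91.9 CPM in male p53 KO, 118, 125 and 113 CPM in male Y202C, and 118, 97.1 and 113 CPM in male Y217C. All mutant libraries of these lines lay above the p53 KO ones, with log2 changes of 0.40 ± 0.08 (adjusted p = 5.56e-05) and 0.28 ± 0.08 (adjusted p = 0.00196). In the female culture it measured 77.1, 75.7 and 80.6 CPM in p53 KO, 94.8, 112 and 97.9 CPM in Y202C, and 140.3, 119 and 119 CPM in Y217C. These groups did not overlap either, and the log2 changes were 0.38 ± 0.08 (adjusted p = 0.000101) and 0.70 ± 0.08 (adjusted p = 4.07e-08). Both R172H lines were not called (log2 changes -0.00, adjusted p = 0.992, in males and 0.13, adjusted p = 0.129, in females), though the female value was called higher in a fit of the compared lines alone (0.15, adjusted p = 0.0141). Per kb of exon, Cdkn2b made up 16.8% ± 0.233 and 18.3% ± 0.24 (SD, n = 3) of the summed Cdkn2a, Cdkn2b and Cdkn2c level in female and male p53 KO, and 28.7% ± 1.97 and 30.0% ± 2.29 in female and male Y202C.

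Cdkn2c, the gene of p18Ink4c (chromosome 4, 109660876 to 109667189), rose in 4 mutant lines, fell in female Y202C and was not called in male Y202C. It measured 33.4, 32.7 and 31.9 CPM in female p53 KO against 56.4, 58.0 and 57.4 CPM in female R172H, a log2 change of 0.81 ± 0.06 (adjusted p = 1.97e-11) and the largest value of the INK4 genes here. The spread within female R172H was under 1 CPM (SD 0.783), so the groups stood far apart. Male Y217C came next (0.72 ± 0.06, adjusted p = 1.55e-10), ahead of female Y217C (0.56 ± 0.06, adjusted p = 3.11e-08) and male R172H (0.33 ± 0.06, adjusted p = 0.000106). In female Y202C it fell by 0.30 ± 0.06 on the log2 scale (adjusted p = 0.000142), and in male Y202C the value was -0.05 (adjusted p = 0.489).

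Cdkn1b, the gene of p27Kip1 (chromosome 6, 134920401 to 134925513), rose in 5 mutant lines and fell in 1. The largest rise was in female Y202C, at 118, 104 and 123 CPM against 64.1, 60.5 and 58.5 CPM in female p53 KO (log2 change 0.91 ± 0.09, adjusted p = 3.03e-09). The only fall was in the male line of the same mutant, at 54.6, 53.9 and 68.2 CPM against 63.9, 75.2 and 75.0 CPM (-0.28 ± 0.09, adjusted p = 0.00673), where the groups overlapped. Rises in the other lines were 0.73 ± 0.09 in male Y217C (adjusted p = 7.99e-08), 0.64 ± 0.09 in female Y217C (adjusted p = 1.42e-06), 0.62 ± 0.09 in female R172H (adjusted p = 1.22e-06) and 0.30 ± 0.09 in male R172H (adjusted p = 0.00881). The rise in male R172H was not called without male p53 KO replicate 1 (0.23, adjusted p = 0.0681).

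Ccnd1, the gene of cyclin D1 (chromosome 7, 144929931 to 144939925), is the D-type cyclin most often tied to mitogen signalling. Against the p53 KO of its own culture, it rose in all 3 male mutant lines and fell in all 3 female ones. The 3 lines of a culture share that p53 KO line, and its level differed between the cultures, 231 CPM in males and 353 CPM in females. Male R172H, female R172H and female Y217C lay between these levels. Male p53 KO libraries measured 239, 229 and 224 CPM, male Y202C 736, 757 and 696 CPM, male Y217C 573, 605 and 563 CPM, and male R172H 304, 278 and 271 CPM. No mutant library overlapped the p53 KO range, and Y202C and Y217C stood well apart from R172H. The log2 changes were 1.66 ± 0.05 (adjusted p = 2.12e-18), 1.33 ± 0.05 (adjusted p = 8.53e-17) and 0.30 ± 0.05 (adjusted p = 5.42e-05).
Female p53 KO libraries measured 362, 356 and 343 CPM, female Y202C 151, 165 and 158 CPM, female R172H 257, 248 and 272 CPM, and female Y217C 311.5, 311.8 and 311.8 CPM. All female mutant libraries were below those of p53 KO, Y202C lowest. The log2 changes were -1.16 ± 0.05 (adjusted p = 2.73e-15), -0.45 ± 0.05 (adjusted p = 4.22e-08) and -0.18 ± 0.05 (adjusted p = 0.00438), the last of them not called with library totals in place of TMM factors (-0.10, adjusted p = 0.0754). All 7 neighbouring pairs in the order of the 8 line means differed for Ccnd1, from male Y202C (729.8 CPM) down to female Y202C (158 CPM), a span of 4.62-fold, so the lines with the highest and the lowest level carried the same mutant.
Of the exon bases of Ccnd1, 23.4% are also exon of LTO1 on the other strand, and the strand of counting is not given in the sources used here. LTO1 itself was at 1.54% to 6.23% of the CPM of Ccnd1 over the 8 lines, not scaled by length. The summed fibroblast and mural marker level, most of it Col1a1 and Col1a2, was lower in both male lines with the largest Ccnd1 rises (7971 to 9804 CPM in Y202C and 16600 to 17250 CPM in Y217C) than in male p53 KO. Of the 6 markers 1 was higher and 3 lower in male Y202C (37.6% and 35.4% of all genes). In male Y217C 1 was higher and 4 lower (34.9% and 35.6%). Pdgfrb went from 267 to 786 CPM in male Y217C and Dcn from 2.70 to 4.86 CPM in male Y202C. In the female culture, where Ccnd1 fell, the summed level averaged 37590 CPM in R172H, 33710 CPM in Y202C and 24370 CPM in Y217C, against 23400 CPM in p53 KO. In R172H and in Y202C 5 of the 6 markers were higher and 1 lower. Beside these, 34.4% and 34.3% of all genes were higher and 35.3% and 34.3% lower. In Y217C 3 markers were higher and 1 lower (28.0% and 28.7% of all genes). In male R172H, where Ccnd1 rose, the summed level averaged 32040 CPM against 27830 CPM in male p53 KO, with 2 markers higher and 2 lower (20.2% and 20.5% of all genes). The part of the fibroblast and mural markers in the Ccnd1 values was not tested, nor was that of the astrocyte markers, which were mostly higher in male Y217C.

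Ccnd2 and Ccnd3, the genes of cyclins D2 and D3, varied less. Ccnd2 (chromosome 6, 127125162 to 127152193) rose only in male R172H, at 955, 916 and 868 CPM against 693, 677 and 722 CPM in male p53 KO (log2 change 0.39 ± 0.05, adjusted p = 3.96e-07). The same mutant in females went the other way, at 740.0, 718 and 726 CPM against 984, 987 and 939.6 CPM (-0.41 ± 0.05, adjusted p = 2.5e-08). Both groups of libraries were clear of their controls. The p53 KO lines themselves differed for Ccnd2, at 697 CPM in males and 970.1 CPM in females. Male and female R172H, at 912.9 and 728 CPM, lay between these levels. Smaller falls were called in female Y217C (-0.27 ± 0.05, adjusted p = 2.62e-05) and male Y217C (-0.14 ± 0.05, adjusted p = 0.0083), the latter not called with library totals in place of TMM factors (-0.04, adjusted p = 0.453), and neither Y202C line was called.
Ccnd3 (chromosome 17, 47505051 to 47599691) fell in male Y202C, at 131, 113 and 126 CPM, and male Y217C, at 126, 122 and 122 CPM, against 179, 177 and 179 CPM in male p53 KO. The log2 changes were near equal (-0.53 ± 0.05, adjusted p = 1.71e-09, and -0.54 ± 0.05, adjusted p = 1.67e-09). These are the lines in which Ccnd1 rose most. Ccnd3 rose in both R172H lines, by 0.21 ± 0.05 in males (adjusted p = 0.00244) and 0.22 ± 0.05 in females (adjusted p = 0.000592), and was not called in female Y202C (-0.10, adjusted p = 0.0843) or female Y217C (-0.12, adjusted p = 0.0572). The Y217C value was called by limma voom, by DESeq2, with DESeq2 size factors in edgeR and in a fit of the lines compared alone (adjusted p = 0.00868 to 0.0439), and the Y202C value by limma voom (-0.13, adjusted p = 0.00794) and without female Y202C replicate 2 (-0.14, adjusted p = 0.0245).

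Taken per kb of exon, the makeup of the D-type cyclins differed most in 2 of the 8 lines, which is given as a description. Ccnd2 made up 51.6% ± 1.16 and 51.3% ± 0.283 (SD, n = 3) of the summed level in male and female p53 KO, and Ccnd1 34.2% ± 1.12 and 37.4% ± 0.207. In male Y202C and male Y217C, Ccnd1 made up 63.3% ± 1.07 and 60.3% ± 1.11 and had become the largest share. In female Y202C it made up 21.7% ± 0.949, and Ccnd2 held 64.6% ± 1.63. The summed level itself ran from 143 CPM per kb in male p53 KO to 245 in male Y202C, whereas in females it was highest in p53 KO (201) and lowest in Y202C (154).

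**Figure D3:**
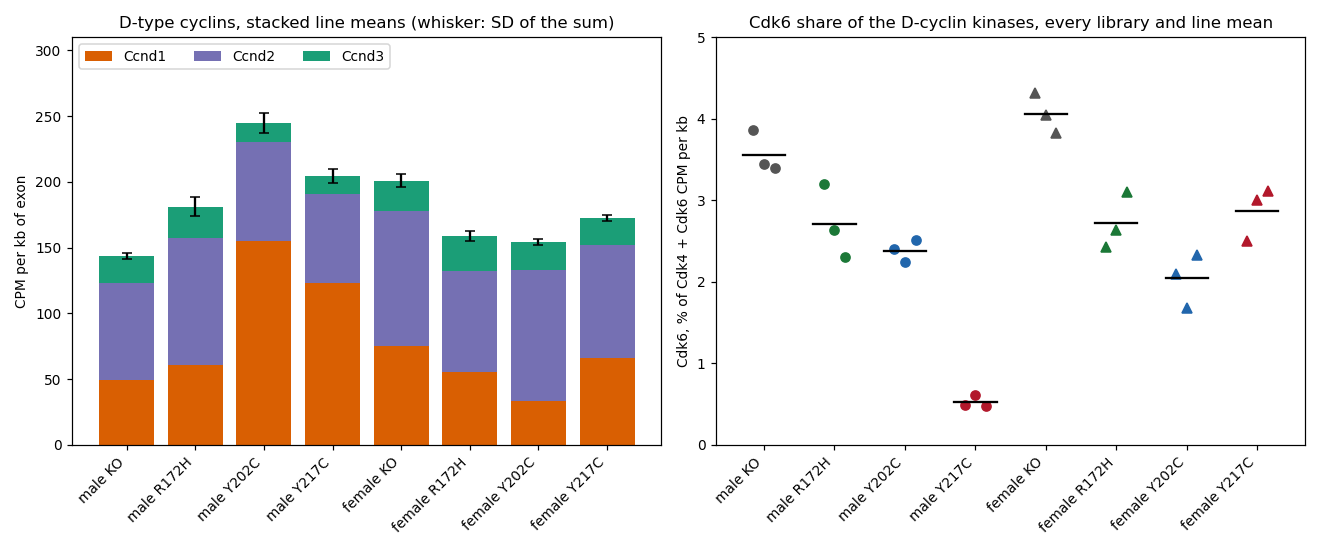
Left, stacked line means of Ccnd1, Ccnd2 and Ccnd3 in CPM per kb of exon for the 8 lines, with whiskers for the SD of the sum (n = 3); right, Cdk6 as a percentage of the summed Cdk4 and Cdk6 CPM per kb, with points for libraries and horizontal lines for line means. The Ccnd1 segment is largest in male Y202C and male Y217C, and the Cdk6 share is 0.525% in male Y217C against 2.04% to 4.06% in the other 7 lines.

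Cdk4 and Cdk6 code for the kinases that the D-type cyclins activate. Cdk4 (chromosome 10, 127063534 to 127067920) rose in all 3 male mutant lines, from 327, 324 and 320.1 CPM in male p53 KO to 452, 432 and 458 CPM in Y217C (log2 change 0.47 ± 0.04, adjusted p = 1.93e-09), with smaller rises in Y202C (0.32 ± 0.04, adjusted p = 6.64e-07) and R172H (0.25 ± 0.04, adjusted p = 0.000104). In females it fell slightly in Y202C (-0.18 ± 0.04, adjusted p = 0.000914) and R172H (-0.14 ± 0.04, adjusted p = 0.00764) and was not called in Y217C (0.01, adjusted p = 0.841). Its span over the 8 line means, 1.52-fold, was the narrowest of the 10 genes. Of its exon bases, 19.7% overlap Tspan31 on the other strand, which stood at 12.9% to 20.4% of the CPM of Cdk4, not scaled by length.
Cdk6 (chromosome 5, 3341485 to 3531008) had the widest span, 6.00-fold, and was called lower in 5 of the 6 mutant lines and higher in 0. In male Y217C it was at 9.48, 11.5 and 9.45 CPM against 56.5, 49.7 and 48.4 CPM in male p53 KO, with no overlap and 5.07-fold between the fitted levels. In this line 7 of the 9 astrocyte markers were higher than in p53 KO (34.9% of all genes), and their part in the Cdk6 value was not tested. That log2 change, -2.34 ± 0.11 (adjusted p = 4.78e-15), was the largest in either direction for any of the 10 genes in the 6 comparisons. Female Y202C followed, at 26.4, 23.0 and 29.0 CPM against 65.2, 61.0 and 56.3 CPM in female p53 KO (-1.22 ± 0.11, adjusted p = 5.66e-10).
Female R172H (-0.74 ± 0.10, adjusted p = 1.03e-06) and female Y217C (-0.51 ± 0.10, adjusted p = 0.000231) fell less. The fall in male Y202C was small (-0.27 ± 0.10, adjusted p = 0.0218) and was not called without male p53 KO replicate 1 (-0.20, adjusted p = 0.116) or without male Y202C replicate 2 (-0.23, adjusted p = 0.0812). Male R172H was not called (-0.16, adjusted p = 0.222). Per kb, Cdk4 was by far the more abundant kinase gene: Cdk6 made up 3.56% ± 0.256 (SD, n = 3) of their sum in male p53 KO, 4.06% ± 0.242 in female p53 KO and 0.525% ± 0.0768 in male Y217C.

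Rb1 (chromosome 14, 73183673 to 73325822), the gene of RB, was among the genes of low level, at 1.45 to 4.77 CPM per kb over line means (percentiles 25.1 to 47.7), and it rose in 4 mutant lines. In male Y217C it measured 29.9, 29.0 and 27.3 CPM and in male Y202C 21.0, 20.3 and 28.0 CPM, against 12.3, 11.4 and 13.7 CPM in male p53 KO. Both groups lay wholly above the control, with log2 changes of 1.20 ± 0.11 (adjusted p = 8.6e-10) and 0.89 ± 0.11 (adjusted p = 1.26e-07). Male R172H fell, at 8.60, 8.81 and 8.83 CPM (-0.51 ± 0.11, adjusted p = 0.000839).
In females the changes were smaller, 0.33 ± 0.11 in Y202C (adjusted p = 0.0116) and 0.31 ± 0.11 in R172H (adjusted p = 0.0162), with Y217C not called (-0.18, adjusted p = 0.176). The Y202C call was lost without female Y202C replicate 1 (0.27, adjusted p = 0.0613) or replicate 3 (0.28, adjusted p = 0.0572), and the R172H call without female p53 KO replicate 3 (0.28, adjusted p = 0.059) or female R172H replicate 2 (0.26, adjusted p = 0.0695). Of the exon bases of Rb1, 14.9% overlap Rcbtb2 and Lpar6 on the other strand. Rcbtb2 stood at 132% to 366% of the CPM of Rb1 and Lpar6 at 36.8% to 82.7%, not scaled by length. Lpar6 averaged 6.16 CPM in male p53 KO, 19.1 CPM in male Y202C and 10.9 CPM in male Y217C, and Rcbtb2 35.8, 30.6 and 57.4 CPM. The part of these overlaps in the Rb1 values was not tested, and neither was that of the astrocyte markers that were higher in male Y217C.

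The effect of a mutant in the male culture was then set against its effect in the female culture, as a difference of log2 fold changes tested in the same fit. For R172H 7 of the 10 genes differed, beside 58.0% of all genes, for Y202C 7 beside 68.0%, and for Y217C 7 beside 54.8%. Ccnd1, Cdk4, Cdk6 and Rb1 differed for all 3 mutants. Ccnd1 and Cdk4 did so in 1 direction, more positive in males each time, and the largest difference of all was that of Ccnd1 for Y202C, 2.82 ± 0.07 (adjusted p = 1.29e-19). The differences for the 3 mutants are not independent, since each contains the same p53 KO lines. The male and female lines of a mutant also differed in Trp53 level. Trp53 averaged 2324 CPM in male and 593 CPM in female Y202C, and 1215 CPM in male and 3709 CPM in female Y217C. In R172H it averaged 2287 CPM in males and 1956 CPM in females. The part of the Trp53 level in the differences of effect was not tested. Ccnd1 was lower in male than in female p53 KO by 0.61 on the log2 scale. Male and female R172H themselves differed by only 0.13 ± 0.05 (adjusted p = 0.0265), with overlapping libraries.
Cdk6 changed side: its male effect was more positive than the female one for R172H (0.58 ± 0.15, adjusted p = 0.00169) and Y202C (0.94 ± 0.15, adjusted p = 5.17e-06), and more negative for Y217C (-1.84 ± 0.15, adjusted p = 2.63e-10). The male effect on Rb1 was more negative for R172H (-0.82 ± 0.16, adjusted p = 0.000101) and more positive for Y202C (0.55 ± 0.16, adjusted p = 0.00327) and Y217C (1.38 ± 0.16, adjusted p = 6.38e-08). Cdkn2a and Cdkn2b differed between the cultures for Y217C alone, with differences of -0.62 ± 0.16 (adjusted p = 0.00176) and -0.42 ± 0.11 (adjusted p = 0.00197). For R172H and Y202C the 95% intervals of the Cdkn2a difference were -0.38 to 0.23 and -0.25 to 0.37. The Cdkn1b difference for R172H (-0.32, adjusted p = 0.0303) was not called when any 1 of these was left out: male p53 KO replicates 2 and 3, male R172H replicate 1, female p53 KO replicates 2 and 3, and female R172H replicates 1 and 2 (-0.31 to -0.25, adjusted p = 0.0535 to 0.1). That of Cdkn2c for Y202C (0.25, adjusted p = 0.0124) was not called without male Y202C replicate 1 (0.19, adjusted p = 0.0526), with library totals alone (0.18, adjusted p = 0.0783) or with a filter of 5 CPM (0.18, adjusted p = 0.0574).

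**Figure D4:**
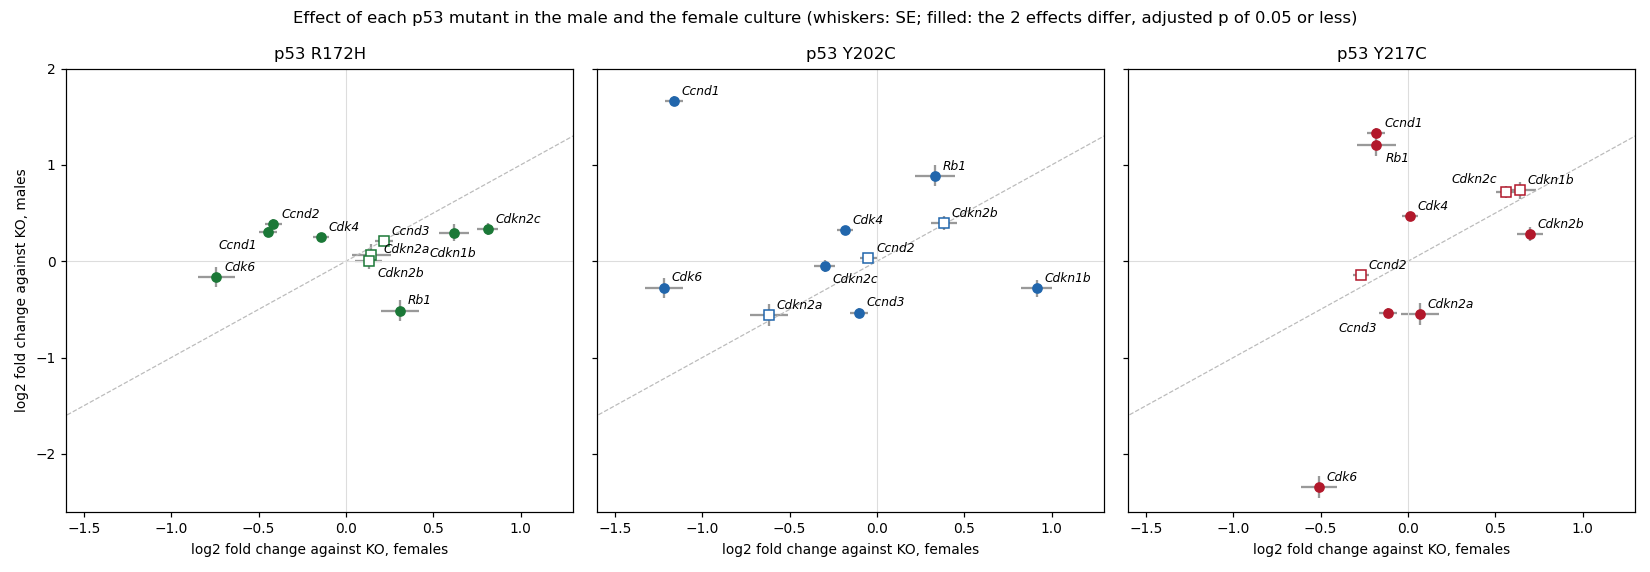
log2 fold change against p53 KO in the male culture (vertical axis) and in the female culture (horizontal axis) for the 10 genes, 1 panel per mutant; whiskers are SE, filled circles mark genes whose 2 effects differ at an adjusted p of 0.05 or less, open squares the others, and the dashed line marks equal effects. Ccnd1 lies in the upper left of every panel, with 1.66 in males and -1.16 in females for Y202C, and Cdk6 for Y217C lies at the bottom.

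The p53 KO cultures themselves were also compared, in the same fit. Male against female p53 KO, 4 of the 10 genes were called, 1 higher and 3 lower in males, beside 31.1% of all genes (17.2% higher, 13.8% lower). Ccnd1 (231 against 353 CPM, log2 difference -0.61 ± 0.05, adjusted p = 1.28e-09) and Ccnd2 (697 against 970.1 CPM, -0.48 ± 0.05, adjusted p = 1.5e-08) were lower in the male culture. The calls for Ccnd3 (-0.16, adjusted p = 0.0214) and Cdkn2b (0.21, adjusted p = 0.036) were both lost, leaving 2 called, without male p53 KO replicate 2, without male p53 KO replicate 3 or without female p53 KO replicate 1. Without female p53 KO replicate 2 Cdkn2b alone was lost (0.19, adjusted p = 0.115), and without male p53 KO replicate 1 the count rose to 6, with Cdkn1b (0.30, adjusted p = 0.0174) and Cdk6 (-0.31, adjusted p = 0.0431). With all libraries, Cdkn1b (0.23 in the test used here) was also called by limma voom, by DESeq2, with library totals, with a filter of 5 CPM and in a fit of the compared lines alone (0.23 to 0.27, adjusted p = 0.000356 to 0.0428), and Cdk6 (-0.24) by limma voom (-0.28, adjusted p = 0.000757) and in a fit of the compared lines alone (-0.24, adjusted p = 0.00834). With library totals alone 65.7% of all genes called were higher in males, against 55.5% with TMM factors, and Ccnd3 was not called (-0.12, adjusted p = 0.0618).
Over the order of line means of each gene, 25 of 70 pairs of neighbours differed and 45 did not. Over all 28 pairs of lines 63.8% of the tests of all genes were called, which is no reference here because neighbours are the closest pairs by construction. No neighbours in the order differed for Cdkn2b, and for Cdkn2a only female p53 KO and male Y217C did (log2 difference 0.48, adjusted p = 0.000428), the step that separated the 3 low lines from the other 5.

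The other inhibitors of the same families were read next. Cdkn1c, the gene of p57Kip2, had the widest range of them: it fell by 4.50 ± 0.15 on the log2 scale in female Y202C (4.37 against 98.3 CPM, adjusted p = 1.3e-17), by 3.46 ± 0.14 in male Y217C (adjusted p = 2.19e-16), by 2.69 ± 0.13 in female R172H (adjusted p = 7.55e-15) and by 1.63 ± 0.13 in male Y202C (adjusted p = 4.15e-11). It rose in female Y217C (1.20 ± 0.12, adjusted p = 1.41e-08) and male R172H (0.40 ± 0.12, adjusted p = 0.0115). Cdkn1a, the gene of p21 and a classical p53 target, was at 8.49 to 27.2 CPM over line means; it fell in male Y217C (-1.01 ± 0.08, adjusted p = 4.79e-11) and female Y202C (-0.98 ± 0.08, adjusted p = 1.97e-10) and rose in female Y217C (0.54 ± 0.08, adjusted p = 2.47e-06) and male R172H (0.42 ± 0.08, adjusted p = 0.000127). Cdkn2d, the gene of p19Ink4d, fell in male Y202C (-0.54) and female Y202C (-0.65), as Cdkn2a did, and rose in male Y217C (0.46), where Cdkn2a fell.

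Downstream of RB, E2F target genes of the G1/S step were mostly lower in 3 lines. Of 20 such genes, 18 fell in male Y202C, 18 in female R172H and 18 in female Y202C, with 2, 0 and 1 higher. Median log2 changes were -1.23, -0.59 and -0.53. In these lines 35.4%, 35.3% and 34.3% of all genes were lower and 37.6%, 34.4% and 34.3% higher. Rrm2, a subunit of ribonucleotide reductase, went from 127 to 17.7 CPM in male Y202C (-2.83 ± 0.12, adjusted p = 4.91e-16), and Cdc6, which loads the replicative helicase, from 24.2 to 4.44 CPM (-2.44 ± 0.12, adjusted p = 4.41e-15). Fewer fell in male Y217C (9, with 3 higher, median -0.16), female Y217C (8, with 2 higher, median -0.14) and male R172H (5, with 1 higher, median -0.11). Beside these, 35.6%, 28.7% and 20.5% of all genes were lower and 34.9%, 28.0% and 20.2% higher. Cdt1, another helicase loader, rose in 4 lines, most in female Y217C by 0.60 ± 0.07 (adjusted p = 7.5e-08).

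**Figure D5:**
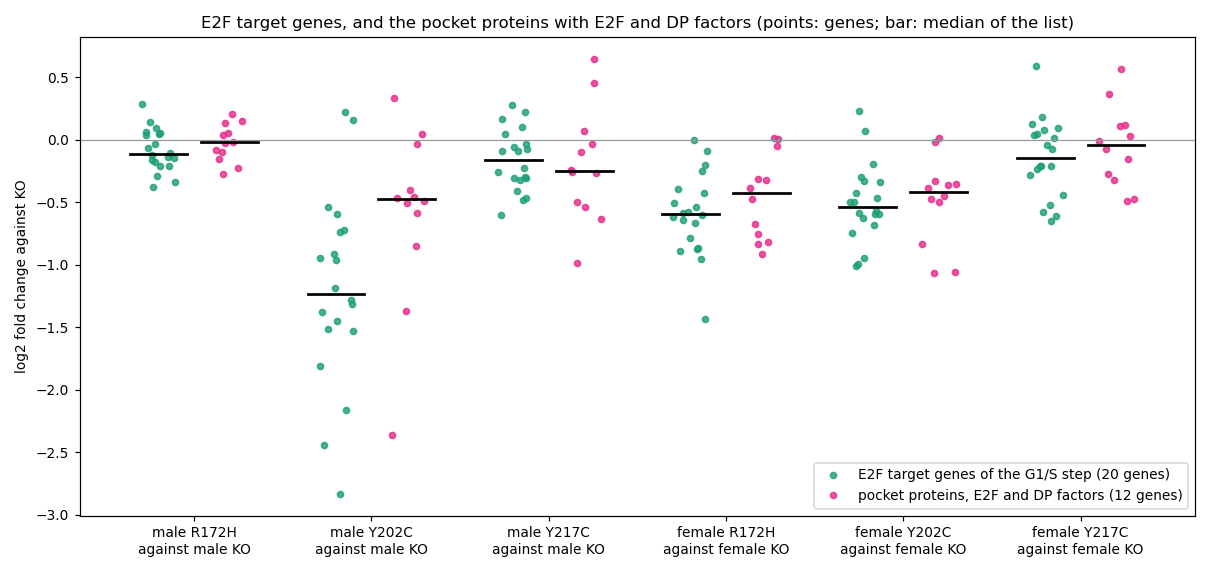
log2 fold change against p53 KO (vertical axis) in the 6 comparisons (horizontal axis) of 20 E2F target genes of the G1/S step and of 12 pocket proteins, E2F and DP factors; points are genes and bars the medians of a list. The E2F target median is lowest in male Y202C (-1.23), and both lists centre near 0 in male R172H.

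The RB relatives and E2F and DP factors (12 genes besides Rb1) were lower in 9, 6, 9, 10 and 4 cases, and higher in 1, 2, 0, 0 and 2, in male Y202C, male Y217C, female R172H, female Y202C and female Y217C. In these lines 35.4%, 35.6%, 35.3%, 34.3% and 28.7% of all genes were lower, and 37.6%, 34.9%, 34.4%, 34.3% and 28.0% higher. The share lower in female Y217C was thus near that of all genes. In male R172H 1 was lower and 2 were higher (20.5% and 20.2% of all genes), the share higher being near that of all genes. E2f7, a repressive E2F and itself an E2F target, fell most in male Y202C (-2.36 ± 0.14, adjusted p = 1.85e-13). Tfdp1, the partner of most E2F proteins, fell most in female Y202C (-1.06 ± 0.07, adjusted p = 2.43e-12). It also fell in female R172H (-0.83), female Y217C (-0.49), male Y202C (-0.47) and male Y217C (-0.24), and was not called in male R172H (0.04). Tfdp1 was lower in male than in female p53 KO (157.4 against 233.2 CPM, -0.57 ± 0.07, adjusted p = 4.38e-07). Rbl2, the gene of the RB relative p130, rose in male Y217C (0.65 ± 0.06, adjusted p = 3.14e-10), where Rb1 rose, and slightly in male R172H (0.15 ± 0.06, adjusted p = 0.0382), where Rb1 fell. It fell in female R172H (-0.31) and female Y202C (-0.35), where Rb1 rose, and in female Y217C (-0.33). The Rbl2 level differed between the p53 KO lines, at 31.25 CPM in males and 58.51 CPM in females (-0.90 ± 0.06, adjusted p = 6.14e-12). Male Y217C (48.99 CPM) and female R172H, Y202C and Y217C (47.22, 45.88 and 46.71 CPM) lay between these levels.
Of 8 listed genes for cyclin E, cyclin A, CDK2 and its activators, 5 fell and 3 rose in male Y202C and likewise in female Y202C, and 7 fell with 0 higher in female R172H, beside 35.4%, 34.3% and 35.3% of all genes lower and 37.6%, 34.3% and 34.4% higher. The shares that rose in both Y202C lines were near those of all genes. In male Y217C 4 fell and 1 rose (35.6% and 34.9% of all genes). In female Y217C 1 fell and 2 rose (28.7% and 28.0%), and in male R172H 1 fell and 1 rose (20.5% and 20.2%). Ccne2 was lower in 5 lines, most in male Y202C (-1.90 ± 0.15, adjusted p = 3.97e-11), and Ccne1 in 4. In the list of 9 genes for turnover of D cyclins, cyclin E and p27, 7 fell and 2 rose in female R172H (35.3% and 34.4% of all genes), and in male R172H 0 were called (40.7% of all genes). Of these genes 2 fell and 3 rose in male Y202C (35.4% and 37.6%), and 5 and 2 in male Y217C (35.6% and 34.9%). In female Y202C 4 fell and 2 rose (34.3% and 34.3%), and in female Y217C 3 and 4 (28.7% and 28.0%). The values of Skp2 and Cdkn1b given here are RNA levels, and p27 protein was not measured. Skp2, whose product marks p27 protein for degradation, fell by 1.44 ± 0.10 in male Y202C (adjusted p = 2.65e-12), where Cdkn1b fell. It also fell in 4 lines where Cdkn1b rose, by 0.90 ± 0.10 in female Y202C (adjusted p = 1.32e-08), by 0.89 ± 0.10 in male Y217C (adjusted p = 1.17e-08) and by 0.26 in both female R172H (adjusted p = 0.015) and female Y217C (adjusted p = 0.0217).

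The 19 listed regulators of the Cdkn2a and Cdkn2b locus moved in both directions in each mutant line. In male Y202C 10 were higher and 5 lower (37.6% and 35.4% of all genes), in female Y217C 2 and 8 (28.0% and 28.7%), in female Y202C 8 and 8 (34.3% and 34.3%), in male Y217C 7 and 7 (34.9% and 35.6%), in female R172H 7 and 7 (34.4% and 35.3%), and in male R172H 3 and 5 (20.2% and 20.5%). The Polycomb gene Cbx7, a repressor of the locus, rose in male Y202C from 3.34 to 25.2 CPM (2.92 ± 0.17, adjusted p = 1.28e-13) and in male Y217C (1.85 ± 0.16, adjusted p = 4.94e-10), and fell in female Y202C (-1.23 ± 0.19, adjusted p = 3.43e-06). Cdkn2a fell in all 3 of these lines. Cbx7 also rose in female R172H (0.64 ± 0.16, adjusted p = 0.00131) and fell in male R172H (-0.70 ± 0.17, adjusted p = 0.0026), where Cdkn2a was not called. Ezh2, the methyltransferase of Polycomb, fell in male Y202C (-0.96 ± 0.07, adjusted p = 1.3e-11), female R172H (-0.66 ± 0.07, adjusted p = 1.17e-08) and female Y202C (-0.39, adjusted p = 2.68e-05). Tbx2, a T-box repressor of the locus, rose from 0.298 to 6.12 CPM in male Y217C (4.34 ± 0.28, adjusted p = 1e-12) and also rose in female Y202C (2.44) and female Y217C (1.71), at 0.221 CPM in female p53 KO. Its relative Tbx3 fell in both Y217C lines (-1.78 in males, -1.95 in females) and both Y202C lines (-0.80 and -0.77) and rose in female R172H (0.38). Ets2, an activator of the p16Ink4a promoter, rose from 81.9 to 284 CPM in male Y202C (1.79) and less in male Y217C (0.79), male R172H (0.22) and female Y202C (0.13). The related Ets1 rose in male Y202C (0.34) and fell in female Y202C (-1.44), female R172H (-0.85) and female Y217C (-0.18). Id1, which opposes the Ets factors, fell in female Y217C (-1.83) and male R172H (-0.32) and rose in the other 4 lines (0.32 to 0.80).
Downstream of p19Arf, Mdm2 rose in male Y202C (0.38 ± 0.06, adjusted p = 5.17e-06) and fell in female R172H (-0.31 ± 0.06, adjusted p = 0.000109) and female Y202C (-0.22, adjusted p = 0.00312). Mdm4, the relative of Mdm2 that also restrains p53, fell in female Y217C (-0.68 ± 0.09, adjusted p = 9.92e-07), female R172H (-0.32) and male Y217C (-0.28) and rose in female Y202C (0.21). Npm1, whose protein nucleophosmin holds p19Arf in the nucleolus, fell in male Y217C (-0.63 ± 0.06, adjusted p = 6.6e-09) and in the female R172H (-0.35), Y202C (-0.21) and Y217C (-0.15) lines.

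The table holds 11 further genes, Cdkn2b among them, that start within 2 Mb of Cdkn2a. Their changes differed between the lines in which Cdkn2a fell. In male Y202C 7 of the 11 were higher and 2 lower (37.6% and 35.4% of all genes). In male Y217C 5 were higher and 1 lower (34.9% and 35.6%), and in female Y202C 2 and 5 (34.3% and 34.3%). Where Cdkn2a was not called, 1 was higher and 3 lower in male R172H (20.2% and 20.5%). In female R172H the counts were 3 and 3 (34.4% and 35.3%), and in female Y217C 5 and 3 (28.0% and 28.7%). Mtap, a methionine salvage gene whose start lies 137 kb away, rose by 0.16 ± 0.05 in male Y202C (adjusted p = 0.00892) and changed by -0.61 ± 0.05 in female Y202C (adjusted p = 7.67e-10). Focad changed by 0.62 and -0.57 and the non-coding Wincr1 by 1.91 and -1.11 in the same lines. Mtap is often deleted together with CDKN2A in tumors, and here its line means ran from 91.9 to 157.5 CPM.

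Over the 8 line means of log2 CPM, the genes most like each member were, for Cdkn2a, Zfp217 (Pearson r = 0.959) and Ibtk (0.958), for Cdkn2b, Stard6 (0.962) and Pter (0.946), and for Cdkn2c, Lbh (0.923) and Rfx5 (0.915). For Cdkn1b they were Rab13 (0.982) and 4933404O12Rik (0.968), for Ccnd1, Coprs (0.997) and Lamp1 (0.978), for Ccnd2, the pseudogene Rps12-ps10 (0.941) and Gm11425 (0.936), and for Ccnd3, Gpr157 (0.987) and Sulf2 (0.982). For Cdk4 they were Hacd3 (0.964) and Pou6f1 (0.957), for Cdk6, Ttc37 (0.987) and Ly75 (0.983), and for Rb1, Nme5 (0.988) and Hist3h2a (0.982). These are the highest values over all genes of the table, from 8 points each that share libraries and depth, and are given as a description. No other member was among them, and between members the highest were Ccnd1 with Cdk4 (0.85) and Cdkn2a with Ccnd3 (0.71), and the lowest Ccnd3 with Rb1 (-0.81).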

How the data were processed

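PolyA RNA of 24 libraries was sequenced, and the authors deposited whole-number read counts per gene, not normalized. Per the submitters' processing notes and the study's methods, reads were aligned with STAR 2.5.1a and uniquely aligned, unambiguous reads were counted with Subread featureCounts. The strand of counting is not given in the sources used here. The deposited table holds 14427 genes, all above 1 CPM in 3 or more libraries, and a file of isoform estimates was not analysed here. Ensembl IDs were named by GENCODE M21 on GRCm38 (14350 named, 77 not). Lines were compared with edgeR 4.0.16 in R 4.3.3 (TMM factors, 1 mean per line over all 24 libraries, quasi-likelihood test, Benjamini-Hochberg adjustment over all 14427 genes, threshold 0.05). A filter of 1 CPM in 2 libraries removed no gene. Standard errors are the log2 fold change divided by the square root of F. CPM used TMM-scaled totals, CPM per kb the exon bases of a gene, and log2 CPM for similarity a prior count of 2. The floor was 3 counts. The fitting script was tested on simulated data.

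Alternatives were limma 3.58.1 (voomWithQualityWeights), DESeq2 1.42.0, other scalings, filters, samples, thresholds and a replicate block. All 10 genes were named in every comparison. Of the other lists, every gene was named where a list held under 5. In longer lists the 2 largest rises and the 2 largest falls past the threshold per comparison could be named; the text gives part of these, picked after their values were seen, with further values of the genes so picked. The 2 genes most alike each member and the neighbours within 2 Mb of Cdkn2a were added. Members, lists and tests were chosen with earlier results of these data known. Printed windows are from RefSeq on GRCm38.p6.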

Additional observations from a re-analysis of the deposited data

Results flagged for a closer look

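The effect of a mutant, as a log2 fold change against the p53 KO of its culture, differed between the male and the female culture in 21 tests of a single gene, by edgeR's quasi-likelihood test of the male effect minus the female effect. For R172H the differences were -0.48 for Cdkn2c, -0.32 for Cdkn1b, 0.75 for Ccnd1, 0.80 for Ccnd2, 0.39 for Cdk4, 0.58 for Cdk6 and -0.82 for Rb1. For Y202C they were 0.25 for Cdkn2c, -1.19 for Cdkn1b, 2.82 for Ccnd1, -0.43 for Ccnd3, 0.51 for Cdk4, 0.94 for Cdk6 and 0.55 for Rb1. For Y217C they were -0.62 for Cdkn2a, -0.42 for Cdkn2b, 1.51 for Ccnd1, -0.42 for Ccnd3, 0.46 for Cdk4, -1.84 for Cdk6 and 1.38 for Rb1. Each sex was 1 culture, so a difference between sexes and one between cultures cannot be told apart. The Trp53 level differed between the male and the female line of Y202C (2324 and 593 CPM) and of Y217C (1215 and 3709 CPM). Its part in these differences was not tested. All mutants of a culture were set against the same p53 KO line, so the differences of a gene are not independent.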

How the results depend on the processing

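Of the 100 values for single genes, 100 kept their direction and their side of the threshold with no filter, 97 with DESeq2, 92 with limma voom and 91 with library totals alone. No called value reversed under any setting. The replicate block left all 100 as they were, and the number of genes called in male R172H stayed at 7 with the block. Replicate numbers did not pair the libraries: deviations of libraries with the same number correlated at -0.0116 on average over 84 pairs. A log2 fold change above 0.5 as a further condition left 1 gene called in male R172H, 4 in male Y202C, 3 in female R172H, 4 in female Y202C, 1 between the p53 KO cultures, and 4 in the male against female effect of R172H and 4 in that of Y217C. Counts in male Y217C, in female Y217C and in the male against female effect of Y202C also fell, by smaller proportions, and are not given. The share of all genes under that condition was not computed. At an adjusted p of 0.01 or less, 2 were called between the p53 KO cultures, and smaller losses in other comparisons are not given. Leaving out 1 library at a time gave 6 to 7 genes in male R172H, 7 to 8 in male Y202C, 10 in male Y217C, 7 to 8 in female R172H, 7 to 9 in female Y202C, 6 in female Y217C, 2 to 6 between the p53 KO cultures, and 6 to 7, 6 to 7 and 7 for the differences of effect of R172H, Y202C and Y217C. Cdkn2a and Cdkn2b stayed above the floor in all 16 cases.
Values near 0 that were not called changed sign. Ccnd2 went to -0.020 in male Y202C with a 5 CPM filter and to 0.022 in female Y202C with library totals, and Cdkn2a in female Y217C to -0.0075 with limma voom. The R172H difference of Ccnd3 was 0.0037 with limma voom. The Y202C difference of Cdkn2a was -0.014 with library totals and -0.0071 with the filter, and that of Cdkn2b -0.062 with library totals, -0.055 with the filter and -0.0053 with the compared lines alone. With 1 library left out, Cdkn2b in male R172H was -0.045 to 0.036, Cdkn2c in male Y202C -0.11 to 0.019, Cdkn2a in female Y217C -0.040 to 0.13, Rb1 between the p53 KO cultures -0.012 to 0.13, the R172H difference of Ccnd3 -0.048 to 0.027, and the Y202C differences of Cdkn2a -0.053 to 0.24 and of Cdkn2b -0.054 to 0.086. The cause was not tested.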
